A study of Mus musculus with 25 samples.

Results

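The genes described here encode the endocytic receptor complex of the visceral endoderm, the outer absorptive epithelium that forms around the early mouse embryo and around embryoid bodies. The 5 genes were Lrp2 (megalin), Cubn (cubilin), Amn (amnionless), Dab2 (disabled-2) and Lrpap1 (receptor-associated protein), taken by symbol from the table that pairs array probes with genes, out of 19057 genes named by a probe with 1 symbol. They were measured by 10 probes, of which 7 were detected on at least 2 of the 25 arrays, with at least 1 such probe for every gene. In all, 10656 genes had such a probe.

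Embryoid bodies were grown from mouse embryonic stem cells of the line B6G-2, which carries GFP on a C57BL/6 background and was kept on inactivated fibroblasts before the experiment. Each of 12 chemicals was given at 2 doses after LIF, the factor that holds stem cells undifferentiated, was withdrawn, and RNA was taken 48 h later for 1 Illumina array per chemical and dose. The vehicle, 0.1% DMSO, had a single array. Estradiol (E2), the androgen DHT (dehydrotestosterone in the labels), triiodothyronine (T3), dexamethasone (DEX), the dioxin TCDD and a hydroxylated pentachlorobiphenyl (PCB) were given at 1 and 10 nM, bisphenol A (BPA) at 1 and 100 pM, thalidomide (TMD), permethrin (PMT) and cyclopamine (CPM) at 0.1 and 10 µM, and bis(2-ethylhexyl)phthalate (DEHP) and methoprene acid (MPA) at 1 and 100 µM. All cells were of 1 line, and embryoid bodies hold several cell types at once, so each value is an average over them.

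The table normalized by the authors fell into 2 sets by the median of its columns, 7 arrays (DMSO, E2, DHT and BPA) and 18 arrays (the other 9 chemicals). For those 9 chemicals the set and the chemical cannot be told apart in a comparison with DMSO. Nor can chemical, dose range and handling of the arrays be told apart between groups of chemicals given at different doses. All comparisons with DMSO share its 1 array. The 2 doses of a chemical stood in for replicates in the fits, so that the p-values measure the spread between doses, and nothing said whether arrays came from separate cultures. Between 14451 and 16381 of 45281 probes were detected per array, and the array at 10 nM E2 correlated less with the other arrays of DMSO, E2 and DHT (mean r = 0.978) than those did (0.986).

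Megalin and cubilin are giant receptors that bind a broad range of proteins, vitamins with their carriers, and lipoproteins at the apical surface of absorptive cells. Megalin, a member of the LDL receptor family, spans the membrane itself, whereas cubilin has no transmembrane segment and reaches the surface only in a complex with amnionless. Dab2 is a clathrin adaptor that binds NPXY motifs in the cytoplasmic tails of such receptors, and Lrpap1 is an endoplasmic reticulum chaperone that keeps new receptors of the family free of ligand until they leave. In the mouse embryo the visceral endoderm uses this machinery to take up maternal nutrients, and kidney tubules and the small intestine use it later in life.

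Signals below are the deposited non-normalized values in arbitrary units, lower dose first. They carry the brightness of each array and of each probe, so that they were not set against each other between genes, and chemicals were compared on normalized log2 values. A gene was called changed when its adjusted p (limma, Benjamini-Hochberg over 19140 probes) was below 0.05.

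Amn was detected on all 25 arrays by probe ILMN_2675289, with signals between 864 and 12178 and a median of 8827. Its signal was 10155 in DMSO, 6654 and 10932 in E2, and 8383 and 9005 in DHT. In BPA it was 871 and 864, the lowest values of the series. In T3 it was 12178 and 11823, in DEX 10264 and 11210, and in TCDD 8827 and 10505, whereas PCB, which shares their doses and their normalization set, gave 5466 and 5380. The low arrays thus lay in BPA, PCB and the micromolar set of TMD, PMT and CPM. Amn signal was 4112 and 4027 in TMD, 3686 and 3472 in PMT, and 3447 and 3205 in CPM. In DEHP it was 10292 and 10593 and in MPA 8987 and 10071. These 5 low chemicals are named from the same Amn values. That their arrays did not overlap with any other array, in signal or in normalized values, is thus no separate result. How many other probes part the arrays in this way was not counted.

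In normalized log2 signal, Amn ran from 13.70 in DEX through 13.24 in DMSO and 13.14 in DEHP to 12.30 in PCB, 11.69 in TMD, 11.58 in PMT, 11.54 in CPM and 9.63 in BPA. Between neighbours in this order, the steps down to PCB (0.84), TMD (0.61) and BPA (1.91) were above 3 standard errors of a difference between 2 chemicals (SE = 0.14), and the other neighbours were not told apart. The promoter of Amn runs from 250 bases before to 50 bases after its RefSeq start, on the plus strand at chr12:111270846-111271145 of GRCm38.p6. It is shown because, by the probe used for each gene, Amn changed more against DMSO than any other member in 4 of the 5 low chemicals. Another Dab2 probe, ILMN_3091641, fell more than Amn in PCB, TMD, PMT and CPM, as given below. The Amn promoter was rich in GC (62.3%, against a median of 52.7% over 32851 promoters).
Amn: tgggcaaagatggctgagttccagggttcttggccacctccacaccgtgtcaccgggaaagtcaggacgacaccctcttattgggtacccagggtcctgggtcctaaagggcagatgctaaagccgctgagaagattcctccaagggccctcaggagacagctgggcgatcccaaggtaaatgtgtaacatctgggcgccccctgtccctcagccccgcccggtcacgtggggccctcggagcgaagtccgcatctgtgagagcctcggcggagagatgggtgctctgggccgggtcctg

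Cubn was detected by probe ILMN_1224851 on 24 arrays. Its signal was 465 in DMSO, 256 and 237 in E2, and 347 and 477 in DHT. In BPA it was 40.2, which was not detected (the array software's detection value was 0.0203), and 47.1, which was, so the BPA values of Cubn rest on 1 detected array of 2. The remaining sets are given next. Cubn signal was 861 and 621 in T3, 366 and 587 in DEX, 525 and 431 in TCDD, and 503 and 339 in PCB. It was 401 and 296 in TMD, 466 and 294 in PMT, and 518 and 398 in CPM. The highest signals were the 1464 and 1215 of MPA and the 1137 and 1110 of DEHP. Only in the last 2 chemicals did both arrays lie above every other array for Cubn, and the same held in normalized values. No count was made of other probes with this pattern.

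By normalized log2 signal Cubn stood at 10.35 in MPA, 9.94 in DEHP, 8.94 in DMSO, 8.22 in TMD and 5.92 in BPA, and among neighbours in the order of chemicals the last step alone (2.30) was above 3 standard errors (SE = 0.19). Its promoter, on the minus strand at chr2:13491827-13492126, is set beside that of its membrane partner because Cubn passed the test in DEHP and MPA and Amn did not. It held 44.3% GC and 5 CpG, against 15 CpG in that of Amn and a median of 7.
Cubn: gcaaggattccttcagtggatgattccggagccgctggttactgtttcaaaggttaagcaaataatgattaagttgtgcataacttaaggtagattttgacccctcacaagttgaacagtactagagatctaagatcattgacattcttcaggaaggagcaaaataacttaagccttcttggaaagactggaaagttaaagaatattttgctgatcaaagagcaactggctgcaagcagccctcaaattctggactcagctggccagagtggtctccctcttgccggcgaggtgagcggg

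Lrp2 was measured by ILMN_2735522 on all arrays, whereas its other 2 probes were detected on none. The signal was 2270 in DMSO, 1525 and 1237 in E2, and 1731 and 2115 in DHT. In BPA it was 1456 and 984, of which the second was the lowest of the series. It was 3543 and 2142 in T3, 1821 and 1829 in DEX, 1970 and 2085 in TCDD, and 1942 and 1238 in PCB. Unlike Amn, Lrp2 gave overlapping signals in most sets, and the 2 doses of a chemical often differed. In TMD it was 2458 and 1293, in PMT 1702 and 1377, and in CPM 2459 and 1581. In DEHP it was 3420 and 2868 and in MPA 2897 and 2357. Its normalized log2 signal ran from 11.45 in TCDD over 11.13 in DMSO to 10.09 in BPA, a range over the arrays of 1.73 log2 units against 4.38 for Amn and 4.84 for Cubn. No step between neighbours was above 3 standard errors (SE = 0.19), the largest being 0.27.

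Dab2 was measured by 3 detected probes, of which ILMN_1243329 stands for the gene. By this probe its signal was 7505 in DMSO, 4353 and 4741 in E2, and 4957 and 5776 in DHT. In BPA it was 1547 and 1095. In T3 it was 7583 and 7350, in DEX 6595 and 6723, in TCDD 5742 and 5395, and in PCB 5599 and 4900. The BPA arrays were again the lowest, by a wide margin. Dab2 signal was 4786 and 4118 in TMD, 4795 and 3701 in PMT, and 3742 and 3394 in CPM. It was 10572 and 9028 in DEHP and 9550 and 10869 in MPA. These 4 arrays had the highest deposited Dab2 signals, but in normalized log2 signal the 100 µM DEHP array (12.89) lay among those of T3, DEX and TCDD (12.81 to 13.04) and 3 of the 4 above them. In normalized log2 signal the steps down from DHT to PCB (0.39), from PCB to PMT (0.43) and from CPM to BPA (1.46) were above 3 standard errors (SE = 0.10).

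Dab2 has 2 promoters in the RefSeq table, both on the plus strand, at chr15:6299539-6299838 and chr15:6386498-6386797, and both are shown because probes of different Dab2 transcripts gave different values. Capitals mark matches, on either strand, to AGATAA or TGATAA, the letters bound by GATA factors, which drive endoderm genes.
Dab2 first promoter: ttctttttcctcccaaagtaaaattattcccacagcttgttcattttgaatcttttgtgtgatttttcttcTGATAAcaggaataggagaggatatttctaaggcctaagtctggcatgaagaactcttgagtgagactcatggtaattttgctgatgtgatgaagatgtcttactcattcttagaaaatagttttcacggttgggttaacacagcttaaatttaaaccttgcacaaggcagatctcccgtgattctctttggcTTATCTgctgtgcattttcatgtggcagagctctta
Dab2 second promoter: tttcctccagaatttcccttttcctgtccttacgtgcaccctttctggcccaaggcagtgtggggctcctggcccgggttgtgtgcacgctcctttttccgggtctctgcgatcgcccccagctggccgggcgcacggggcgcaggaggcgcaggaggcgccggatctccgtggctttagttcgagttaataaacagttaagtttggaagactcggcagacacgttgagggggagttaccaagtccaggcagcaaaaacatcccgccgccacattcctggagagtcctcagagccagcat

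The first Dab2 promoter held TGATAA on the plus strand, its first base at position -179 from the start, and AGATAA on the minus strand, at position 15. Either word was present in 18.6% of all promoters of this length. Besides these 2 words, TGTTTAC (FOXA), AACAAT (SOX) and CAAAGTCCA (HNF4) were searched on both strands, and at least 1 of the 5 was found in 28.7% of promoters. Among the 6 promoters of the 5 genes the first of Dab2 alone held a match, which is a description of letters and not of binding. The 2 Dab2 promoters differed in composition, with 37.7% and 59.3% GC and 2 and 19 CpG.

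Lrpap1 was detected on all arrays by probe ILMN_2761472. Its signal was 20376 in DMSO, 13810 and 14768 in E2, and 15335 and 17839 in DHT. In BPA it was 7929 and 6615. In T3 it was 18870 and 17915, in DEX 13954 and 13386, in TCDD 12602 and 13901, and in PCB 9452 and 10352. As for Amn, the PCB arrays lay below those of T3, DEX and TCDD. Lrpap1 signal was 9273 and 8014 in TMD, 7891 and 7626 in PMT, and 7529 and 7761 in CPM. It was 18991 and 17003 in DEHP and 15989 and 18458 in MPA. In normalized values the BPA arrays lay among those of TMD, PMT and CPM, which was not the case for Amn, Cubn or Dab2. In log2 signal Lrpap1 stood at 14.25 in DMSO, 13.14 in PCB, 12.80 in CPM, 12.79 in TMD, 12.73 in PMT and 12.72 in BPA. The steps from DEHP to PCB (0.73) and from PCB to CPM (0.34) were above 3 standard errors (SE = 0.10).

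**Figure D1:**
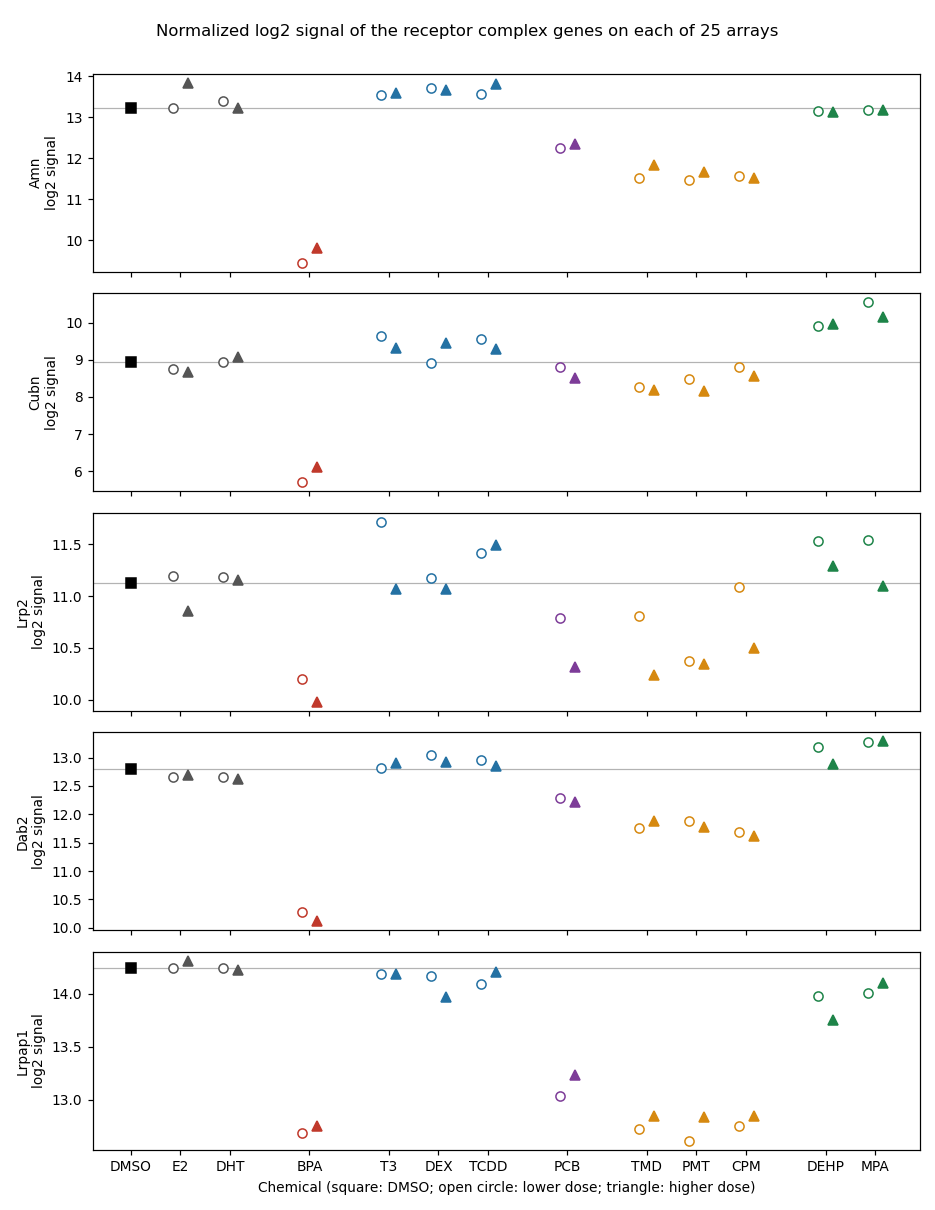
Normalized log2 signal (vertical axis, 1 panel per gene with its own scale) of Amn, Cubn, Lrp2, Dab2 and Lrpap1 on each of the 25 arrays, by chemical (horizontal axis); the square is DMSO, whose level the grey line marks, open circles are lower and triangles higher doses. The BPA arrays were lowest for Amn, Cubn, Lrp2 and Dab2, and PCB lay between the other nanomolar chemicals and TMD, PMT and CPM for Amn, Dab2 and Lrpap1.

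All 5 genes differed among the 12 chemicals (limma F-test, adjusted p from 1.27e-20 for Amn to 5.69e-07 for Lrp2), as did 74.6% of all probes. Against DMSO, 24 of the 60 pairs of gene and chemical passed the test, 21 lower and 3 higher, and 30 had an unadjusted p below 0.05. The t-test named in the methods, run on the same arrays, called 12 pairs at an unadjusted p below 0.05 and 1 after Benjamini-Hochberg adjustment. Over all 19140 probes, each tested against DMSO in the 12 chemicals, that t-test made 24066 unadjusted and 289 adjusted calls. The shares of all probes called by limma are given below for each chemical. On the values normalized by the authors 27 pairs passed, 17 lower and 10 higher; that scaling raised the median of all probes by 0.27 to 0.32 in the 9 chemicals of the second set. In these whole embryoid bodies, fewer cells of a type and less RNA per cell cannot be told apart.

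BPA, at picomolar doses, had the lowest Amn, Cubn, Lrp2 and Dab2 of the series. All 5 genes fell against DMSO, where 10.3% of all probes were lower, and the median of the 5 was -2.59 against 0.05 over all probes. Amn was 12.1-fold lower (log2 difference -3.60 ± 0.17 SE, adjusted p = 1.42e-16), Cubn 8.14-fold (-3.03 ± 0.23), Dab2 6.02-fold (-2.59 ± 0.12), Lrpap1 2.89-fold (-1.53 ± 0.12) and Lrp2 2.05-fold (-1.04 ± 0.24, adjusted p = 0.00216). The same 5 genes fell against the 4 arrays of E2 and DHT, a comparison within 1 normalization set that was chosen after the values were seen, where 17.6% of all probes were lower. There the differences were -3.78 for Amn, -2.94 for Cubn, -2.45 for Dab2, -1.54 for Lrpap1 and -1.0 for Lrp2 (adjusted p at most 2.16e-05). Amn, Cubn and Dab2 thus fell by more than 2 log2 units in both comparisons, and Lrpap1 and Lrp2 by less.

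In TMD, PMT and CPM, Amn, Dab2 and Lrpap1 were lower than in DMSO. Against DMSO, 4 genes fell in TMD, 5 in PMT and 3 in CPM, where 14.6%, 15.7% and 14.4% of all probes were lower. Amn differed by -1.55, -1.66 and -1.69 (SE = 0.17), Lrpap1 by -1.46, -1.52 and -1.45 (SE = 0.12) and Dab2 by -0.97, -0.97 and -1.13 (SE = 0.12) in TMD, PMT and CPM, all with adjusted p of at most 6.84e-07. Cubn fell in TMD (-0.73, adjusted p = 0.0171) and PMT (-0.61, adjusted p = 0.042) and was -0.26 in CPM (adjusted p = 0.422). Lrp2 fell in PMT (-0.77, adjusted p = 0.0141) and was -0.60 in TMD (adjusted p = 0.0543) and -0.33 in CPM (adjusted p = 0.306). The calls of Cubn in TMD and PMT and of Lrp2 in PMT were lost on the values normalized by the authors (adjusted p from 0.123 to 0.346), whose differences, less the median of all probes, were -0.76, -0.62 and -0.83. Those of Cubn were also lost without the 10 µM array (0.069 in TMD, 0.225 in PMT). In PMT, Cubn was further lost with scaling to the median (0.0532), with all probes (0.0731) and without the trend (0.0785), and Lrp2 without the trend (0.0717). Lrp2 in TMD, in turn, passed with scaling to the median (0.026), without the 0.1 µM array (0.0158) and against DMSO, E2 and DHT together (0.00442).

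Within this set the genes did not pass a test of any difference among TMD, PMT and CPM: 0 of 5 and 0% of all probes were called by limma, with 1 of 5 and 604 of all probes at an unadjusted p below 0.05. Against T3, DEX, TCDD and PCB, which share their normalization set, TMD, PMT and CPM together had lower Amn (-1.71), Lrpap1 (-1.12), Dab2 (-0.98), Cubn (-0.78) and Lrp2 (-0.57), with adjusted p of at most 4.34e-05, where 23.6% of all probes were lower. The groups differed in chemicals and in dose range, which cannot be told apart from handling of the arrays. The values stand side by side and say nothing of potency.

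In a comparison also chosen after the values were seen, BPA was lower than TMD, PMT and CPM together in 4 of the 5 genes, where 21.7% of all probes were lower. The difference was -2.49 for Cubn, -1.97 for Amn, -1.57 for Dab2 and -0.47 for Lrp2 (adjusted p = 0.0174), and this last call was lost without the 100 pM BPA array (adjusted p = 0.219), the 0.1 µM TMD array (0.0562) or the 0.1 µM CPM array (0.0563). Lrpap1 did not pass this test (-0.05, 95% interval -0.22 to 0.11, adjusted p = 0.629). BPA and these 3 chemicals belong to different normalization sets, and the set and the chemical cannot be told apart in this comparison.

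PCB was set against T3, DEX and TCDD, which share its doses and its normalization set (E2 and DHT, at the same doses, belong to the other set). An F-test among T3, DEX, TCDD and PCB called all 5 genes (adjusted p from 4.69e-09 for Lrpap1 to 0.00534 for Cubn) and 18.3% of all probes, and without PCB it called 0 of 5 and 0% of probes, with 0 and 1045 at an unadjusted p below 0.05. Against T3, DEX and TCDD together, PCB was lower in Amn (-1.35 ± 0.11 SE), Lrpap1 (-1.0 ± 0.08), Lrp2 (-0.77 ± 0.16), Cubn (-0.70 ± 0.15) and Dab2 (-0.66 ± 0.08), where 13.8% of all probes were lower. The comparison was chosen after the values were seen. Without the 10 nM PCB array the calls of Cubn (adjusted p = 0.0668) and Lrp2 (0.0783) were lost. Against DMSO, PCB had lower Lrpap1 (-1.11), Amn (-0.94) and Dab2 (-0.54, adjusted p = 0.00188), 3 genes where 10.1% of all probes were lower, while Lrp2 (-0.58, adjusted p = 0.082) and Cubn (-0.28, adjusted p = 0.407) did not pass. Lrp2 passed with scaling to the median (-0.64, adjusted p = 0.0325), without the 1 nM PCB array (0.0362) and against DMSO, E2 and DHT together (0.0081).

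In DEHP and MPA, Cubn was higher than in DMSO, and Amn did not pass the test. Cubn rose 1.99-fold in DEHP (0.99 ± 0.23 SE, adjusted p = 0.00232) and 2.65-fold in MPA (1.41 ± 0.23, adjusted p = 4.27e-05), where 11.9% and 13.1% of all probes were higher. Amn differed by -0.10 (95% interval -0.44 to 0.24) and -0.05 (-0.40 to 0.29), so that Cubn RNA was called higher than in DMSO and Amn RNA was not. Protein was not measured. Dab2 rose in MPA by probe ILMN_1243329 (0.49, adjusted p = 0.00347), fell there by ILMN_3091641 (-0.74), and by ILMN_1243329 was 0.25 in DEHP (adjusted p = 0.142). Lrpap1 fell slightly in DEHP (-0.38, adjusted p = 0.0223), where 11.9% of all probes were lower, and was -0.19 in MPA (adjusted p = 0.242), where 13.6% were lower and no member was called so. That call was lost without the 100 µM DEHP array (adjusted p = 0.185) and on the values normalized by the authors (0.415). Lrp2 was 0.28 and 0.19 (adjusted p = 0.423 and 0.589).

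Against T3, DEX, TCDD and PCB, DEHP and MPA together had higher Cubn (0.95, adjusted p = 1.35e-07) and Dab2 (0.41, adjusted p = 4.02e-06), 2 of the 5 genes, where 18.6% of all probes were higher. By the other Dab2 probes the difference was 0.54 for ILMN_2543173, which was called, and -0.11 for ILMN_3091641 (adjusted p = 0.236). Amn (-0.16), Lrp2 (0.23) and Lrpap1 (0.08) did not pass. Here too chemical, dose range and handling of the arrays cannot be told apart. With T3, DEX and TCDD alone as the reference, a choice made after the values were seen, Amn (-0.49, adjusted p = 4.4e-05) and Lrpap1 (-0.17, adjusted p = 0.0279) were called lower, where 22.8% of all probes were. In that comparison Cubn was 0.78 and Dab2 0.25, both called, and ILMN_3091641 was called lower (-0.45). Between DEHP and MPA no gene was called by limma and 0% of all probes were, with 2 of 5 genes (Cubn, -0.42 in DEHP minus MPA, and Dab2, -0.24) and 889 of all probes at an unadjusted p below 0.05.

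In T3, DEX and TCDD none of the 5 genes was called against DMSO by limma, where 3.34%, 3.32% and 3.02% of all probes were called. The t-test that the methods name, after Benjamini-Hochberg adjustment, called 0 of the 5 in DEX and TCDD and 1 in T3, Lrpap1 (-0.06), whose 2 arrays had the same value and hence no spread. An unadjusted p below 0.05 was reached by Cubn in T3 (0.54, adjusted p = 0.185), Amn in DEX (0.47, adjusted p = 0.116), and Amn and Cubn in TCDD (0.46, adjusted p = 0.117, and 0.48, adjusted p = 0.233). These 4 values were all above DMSO. With the mean of DMSO, E2 and DHT as the reference, a choice made after the values were seen, Cubn passed in T3 (0.61, adjusted p = 0.0114) and TCDD (0.55, adjusted p = 0.0288) and Dab2 in DEX (0.30, adjusted p = 0.018). On the values normalized by the authors, Amn passed in all 3, Cubn in T3 and TCDD, and Dab2 in DEX, each higher, where the median of all probes was itself higher by 0.28 to 0.30.

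E2 and DHT are steroid hormones given at the same doses, and the complex lay close to DMSO in both. By limma 0 of 5 genes and 0% of all probes were called against DMSO for either hormone, none of the 5 had an unadjusted p below 0.05, and the methods' t-test called none of the 5 either. Compared with each other over the 5 genes, E2 minus DHT was 0.23 for Amn (95% interval -0.05 to 0.51), -0.31 for Cubn (-0.70 to 0.07), -0.14 for Lrp2 (-0.54 to 0.25), 0.04 for Dab2 (-0.16 to 0.24) and 0.04 for Lrpap1 (-0.16 to 0.24), with adjusted p from 0.435 to 0.886 and 0% of all probes called. Differences of up to about those bounds remain possible for each gene. Without the 1 nM E2 array, which leaves the 10 nM array that correlated less with the rest, Amn alone was called, higher in E2.

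**Figure D2:**
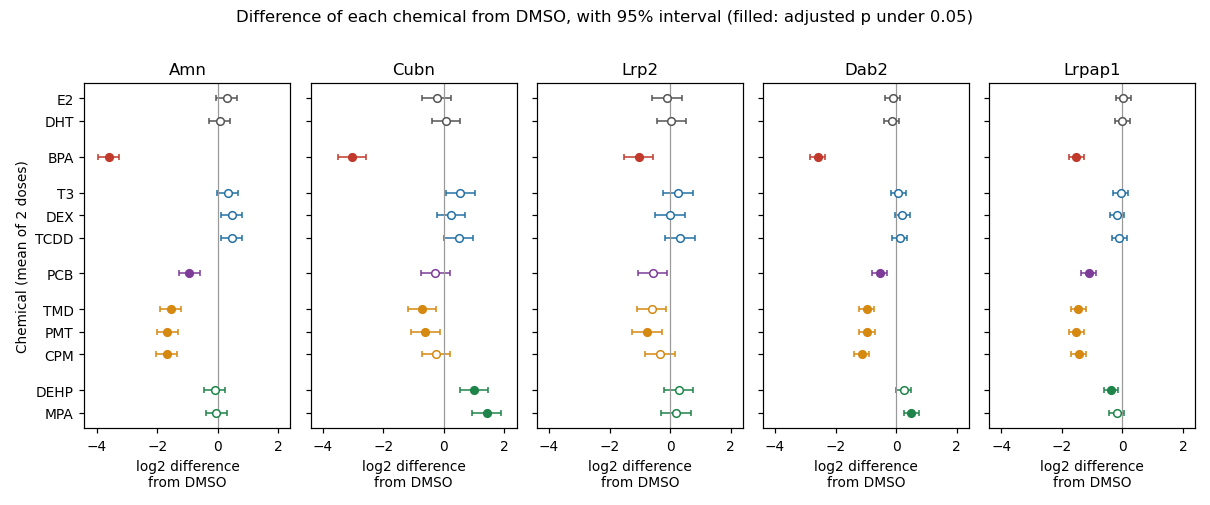
Difference in log2 signal of each chemical (vertical axis, mean of its 2 arrays) from the DMSO array (horizontal axis), 1 panel per gene, with 95% intervals from limma; filled points passed an adjusted p of 0.05. Amn, Dab2 and Lrpap1 were lower in BPA, PCB, TMD, PMT and CPM, and Cubn was higher in DEHP (0.99) and MPA (1.41).

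The 3 detected Dab2 probes, annotated to different Dab2 transcripts, moved together in some chemicals and apart in others. By ILMN_3091641, the signal was 9814 in DMSO and 7376, 6032, 5765 and 5886 on the 4 arrays of DEHP and MPA. By ILMN_2543173, it was 209 in DMSO and 309, 242, 202 and 252 on those arrays. In normalized log2 signal, all 4 DEHP and MPA arrays were below DMSO for the first of these probes (12.32 to 12.62 against 13.19), all 4 were above it for ILMN_1243329 (12.89 to 13.28 against 12.79), and 2 of 4 were above it for the other (7.71 to 8.03 against 7.86).

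In normalized values ILMN_3091641 fell in DEHP (-0.72) and MPA (-0.74, adjusted p = 0.000306), where ILMN_1243329 was 0.25 and 0.49 and ILMN_2543173 was 0.05 and -0.05. In PCB the 3 probes fell by different amounts, -1.63 for ILMN_3091641, -1.04 for ILMN_2543173 and -0.54 for ILMN_1243329. In TMD, PMT and CPM, ILMN_3091641 differed by -2.22, -2.35 and -2.29 and ILMN_2543173 by -1.42, -1.45 and -1.72, all called. The order of the probes was the same in each of these 4 chemicals, with ILMN_1243329 nearest to DMSO. In BPA, ILMN_3091641 (-2.77) and ILMN_1243329 (-2.59) lay close together, and ILMN_2543173 was not detected on either array. The fall of Dab2 in BPA, PCB, TMD, PMT and CPM was thus called by each probe detected there, and its rise in MPA by 1 of 3. The difference between probes was not itself tested.

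**Figure D3:**
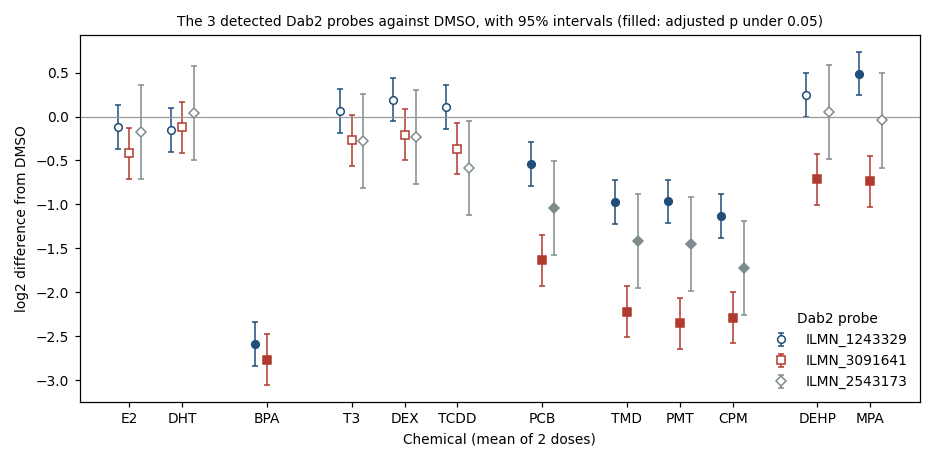
Log2 difference from DMSO (vertical axis) of the 3 detected Dab2 probes by chemical (horizontal axis, mean of 2 arrays), with 95% intervals from limma; filled symbols passed an adjusted p of 0.05, and ILMN_2543173 is not drawn for BPA, where it was not detected. The probes lie together in BPA and apart in PCB, TMD, PMT, CPM, DEHP and MPA.

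No gene was called by limma between the higher and the lower dose over the 12 chemicals, as were 0% of all probes (1964 at an unadjusted p below 0.05). Lrp2 came nearest, lower at the higher dose by -0.30 ± 0.06 SE (unadjusted p = 1.29e-05, adjusted p = 0.0832). It was lower at the higher dose in 11 of 12 chemicals, from -0.65 in T3 to -0.02 in PMT, and higher in TCDD (0.07). The drop in T3 was followed in size by CPM (-0.58), TMD (-0.56), PCB (-0.47) and MPA (-0.44). Without DHT, the adjusted p of Lrp2 was 0.048. Amn had the other unadjusted p below 0.05 (0.13 higher at the higher dose, adjusted p = 0.37), in 7 of 12 chemicals, with 0.62 in E2 the widest gap. The difference in dose effect between the chemicals given in µM and the others was not called for any of the 5 genes (-0.12 for Lrp2, adjusted p = 1.00). Doses spanned different ratios, so that a dose effect is an average over unlike steps.

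**Figure D4:**
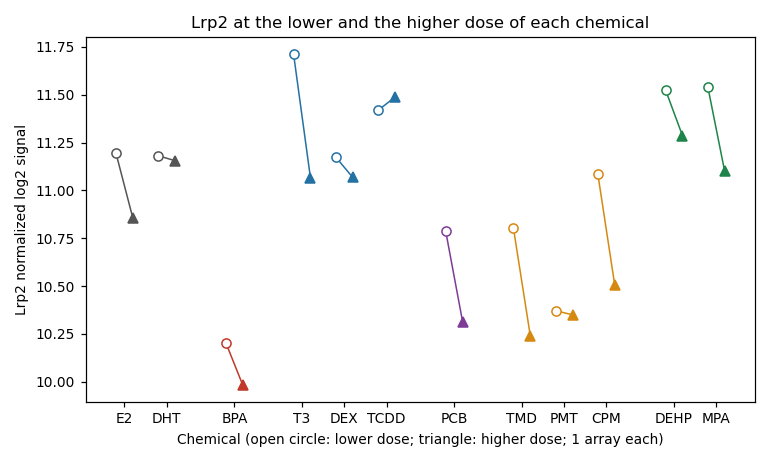
Normalized log2 signal of Lrp2 (vertical axis) at the lower (open circle) and the higher dose (triangle) of each chemical (horizontal axis), 1 array each, joined by a line. The line runs down in 11 of 12 chemicals and up in TCDD (0.07).

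Across the 25 arrays the members followed each other to different degrees, given here as Pearson correlations of log2 signal with no test, since the arrays share chemicals and sets. Amn and Dab2 had the highest r (0.951), then Cubn and Dab2 (0.934), and Amn and Lrpap1 (0.894). Amn and Cubn, whose proteins work as 1 unit, stood at 0.835, and Cubn and Lrpap1 were lowest (0.643). By r with Amn, Dab2 ranked 33, Lrpap1 137, Cubn 319 and Lrp2 439 of 10655 genes. Dab2 ranked 10 by r with Cubn, and Cubn 1272 by r with Lrpap1. Among 10655 other genes the closest to Amn were Nostrin (0.986), Anxa2 (0.977), Id1, an inhibitor of helix-loop-helix factors (0.975), Ang (0.974) and Cited1 (0.973). For Cubn they were Ctsh, a lysosomal protease (0.961), Glipr1 (0.960), Hkdc1 (0.959), the endoderm transcription factor Sox17 (0.953) and Ttr, the thyroid hormone and retinol carrier transthyretin (0.950). For Dab2 they were Pla2g12b (0.988), Clic6 (0.987), the retinoic acid hydroxylase Cyp26a1 (0.985), Spink1 (0.984) and P4ha2, a collagen prolyl hydroxylase (0.981). Lrpap1 was closest to Serpinb6a (0.975), Tmem9b (0.975), Itm2b (0.974), Pros1 (0.974) and the thrombin receptor F2r (0.972). Lrp2 had no gene above 0.9, with Atp6v0a1, a subunit of the vacuolar proton pump, first (0.894), then Flrt3 (0.888), Smarca2 (0.883), Tent5a (0.881) and Sh3tc2 (0.873).

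A list of other receptors of the LDL family and of the sorting receptor Sort1 gave calls in both directions. Of 15 listed, 10 had a detected probe, and in BPA 3 of these were lower and 2 higher than in DMSO (median 0.26), in PCB 4 and 2, in TMD 4 and 2, in PMT and CPM 4 and 3 each, in DEHP 5 and 1, and in MPA 5 and 2. Of all probes, 9.59% in BPA, 10.8% in PCB, 14.9% in TMD, 15.5% in PMT and 14.7% in CPM were higher, beside the shares of lower probes and those of DEHP and MPA given above. Vldlr, the very low density lipoprotein receptor, fell in BPA (-2.72), TMD (-1.65), PMT (-1.65), CPM (-1.63), PCB (-0.78), DEHP (-0.49) and MPA (-0.46). Lrp8, the reelin receptor also known as ApoER2, fell in the same 7 chemicals, from -0.90 in DEHP to -1.49 in PMT. Sort1, a sorting receptor of the Golgi, went the other way (0.51 in BPA, 1.05 in TMD, 1.01 in PMT and 1.03 in CPM). The single Lrp1 probe was detected on 0 arrays.

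The clathrin adaptors and endocytic partners, 21 of 24 with a detected probe, gave 3 lower and 0 higher calls in BPA against DMSO (median -0.05), a share near the 10.3% of all probes. In PCB 9 were lower and 0 higher (median -0.53). In TMD 6 were lower and 1 higher, in PMT 7 and 0, in CPM 6 and 0, in DEHP 5 and 2, and in MPA 6 and 1. Of all probes, 10.1% in PCB, 14.6% in TMD, 15.7% in PMT, 14.4% in CPM, 11.9% in DEHP and 13.6% in MPA were lower. The shares of higher probes are given above. Dnm2 was among the lower calls in BPA, PCB, TMD, PMT, DEHP and MPA, but was detected neither on those arrays nor in DMSO. Myo6, the motor that carries endocytic vesicles inward and binds Dab2, fell in BPA (-2.0), CPM (-1.50), PMT (-1.44), TMD (-1.28), PCB (-1.18) and DEHP (-0.47). Ap2a2, a subunit of the clathrin adaptor AP-2, fell in PCB (-1.23) and was -0.05 in BPA (adjusted p = 0.90). Of 17 listed ligands and carriers 9 were detected, and in BPA 5 were lower and 1 higher, beside 10.3% and 9.59% of all probes. Ttr was not detected on either BPA array, so that only a bound can be given, at least 11.7-fold lower than in DMSO (the DMSO value against the lowest signal of a detected probe on each BPA array, adjusted p = 8.17e-16). It fell in CPM (-1.31), PMT (-1.13) and TMD (-1.08) and rose in DEHP (1.28) and MPA (1.02). Tcn2, the transcobalamin that carries vitamin B12, fell in BPA (-0.82) and CPM (-0.80) and rose in DEHP (1.01) and MPA (0.93), and Trf, transferrin, a cubilin ligand, rose in BPA (2.01).

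Endoderm markers were lower than in DMSO in the chemicals where Amn, Dab2 and Lrpap1 were lower, and the part of cell types in the results was not tested. Of 28 markers of visceral and primitive endoderm 22 had a detected probe, among them Gata6, Sox7, Sox17, Hnf4a and Ttr, whereas Afp, Rbp4, S100g and Fgfr4 were detected on 0 arrays and Cer1 on 1. In BPA 17 of the 22 were lower than in DMSO and 0 higher (median -1.52), in CPM 16, in TMD 15, in PMT 14 and in PCB 11 lower. In DEHP 8 were higher and 1 lower, and in MPA 9 higher and 1 lower. None was called in E2, DHT, T3, DEX or TCDD. Of all probes, 10.3% in BPA, 14.4% in CPM, 14.6% in TMD, 15.7% in PMT and 10.1% in PCB were lower. In DEHP 11.9% were higher and 11.9% lower, and in MPA 13.1% and 13.6%. Among the 17 in BPA, Ttr, Sox17, Apoa1, Foxa2, Hnf4a, Ihh, Krt19 and Fxyd3 were not detected on either BPA array. The median there rests partly on these background values. Fxyd3 was not detected in DMSO either. Apoa1 was likewise not detected in PCB, TMD, PMT or CPM. Gata6, a regulator of primitive endoderm, fell in BPA (-3.01), CPM (-1.62), TMD (-1.61), PMT (-1.49) and PCB (-1.13) and rose in MPA (0.67). Sox17 was not detected on either BPA array (at least 8.60-fold lower, the same bound as for Ttr, adjusted p = 4.05e-14) and rose in DEHP (1.25) and MPA (1.45).

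The 10 markers of parietal endoderm, the other extraembryonic endoderm layer, moved in the same directions in 7 chemicals. Of them 8 were lower in BPA (median -2.42), 8 in CPM, 7 in TMD, 7 in PMT and 5 in PCB, and 9 higher in DEHP and in MPA. The shares of all probes are those given for the visceral markers. Thbd, counted in CPM, was detected neither there nor in DMSO. Unlike the visceral markers, 1 parietal marker was called higher in T3 and 2 each in DEX and TCDD, where 3.34%, 3.32% and 3.02% of all probes were called. Lama1, a laminin chain of the basement membrane under this layer, was -2.93 in BPA and 1.62 in MPA. Summed normalized signal relative to DMSO gave for the 5 receptor complex genes 0.972 to 1.13 in DMSO, E2 and DHT, 1.02 to 1.14 in T3, DEX and TCDD, 0.869 to 1.03 in DEHP and MPA, 0.526 to 0.546 in PCB, 0.374 to 0.420 in TMD, PMT and CPM, and 0.251 to 0.256 in BPA. For the visceral and primitive endoderm markers the same sums were 0.939 to 1.00, 0.999 to 1.10, 1.23 to 1.29, 0.747 to 0.783, 0.612 to 0.657 and 0.464 to 0.473 in that order of sets. For the parietal markers they were 0.893 to 1.06, 1.03 to 1.15, 1.52 to 1.89, 0.399 to 0.412, 0.335 to 0.439 and 0.199 to 0.207. The 3 sums lay below DMSO in BPA, in PCB and in TMD, PMT and CPM. In DEHP and MPA both endoderm sums lay above DMSO, whereas the receptor complex sum is carried by its brightest probes, with 40.3% to 69.0% of it from Lrpap1 and 0.535% to 3.72% from Cubn over the arrays, and so does not show the rise of Cubn.

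Markers of other cell types are given as the same sums, and their part in the results was not tested. The 10 epiblast and pluripotency markers summed to 0.833 to 1.05 of DMSO over all arrays, with 1.03 to 1.05 in BPA. This sum does not show that single markers changed in both directions. All 10 differed among the 12 chemicals, as did 74.6% of all probes. In BPA 2 were lower and 3 higher than in DMSO, beside 10.3% and 9.59% of all probes. In DEHP 3 were lower and 2 higher, beside 11.9% of all probes in each direction. The 6 detected trophoblast markers of 7 were at 0.781 to 1.00 in DMSO, E2 and DHT, 0.707 to 0.969 in T3, DEX and TCDD, 0.255 to 0.315 in DEHP and MPA, 0.595 to 0.681 in PCB, 0.617 to 0.768 in TMD, PMT and CPM and 1.20 to 1.50 in BPA. The 5 detected feeder fibroblast markers of 10 were, in that order of sets, at 0.846 to 1.04, 0.665 to 0.776, 0.740 to 0.833, 0.640 to 0.672, 0.446 to 0.523 and 0.544 to 0.576. The feeder sum was lowest in TMD, PMT and CPM and next in BPA, where the complex was also low, but in PCB it overlapped with T3, DEX and TCDD. Single feeder markers went different ways. In BPA Thy1 (-1.01) and Twist1, not detected there, were called lower than in DMSO. Col1a1 (0.36), Col1a2 (0.32) and Dcn (-0.24) were not called there. Twist1 was also called lower in T3, DEX and TCDD, where the complex was not. These sums include genes near background: Cdx2, Elf5 and Gata3 were detected on 2 arrays each, Col1a1 on 3 and Col1a2 on 2. Of the trophoblast markers, 2 were called lower in DEHP and MPA, where 11.9% and 13.6% of all probes were. They were Tfap2c (-2.04 and -2.11) and Elf5, which was detected neither on those arrays nor in DMSO. Of 4 markers of kidney and intestine, the adult tissues that use the complex, 1 was detected (Vil1).

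**Figure D5:**
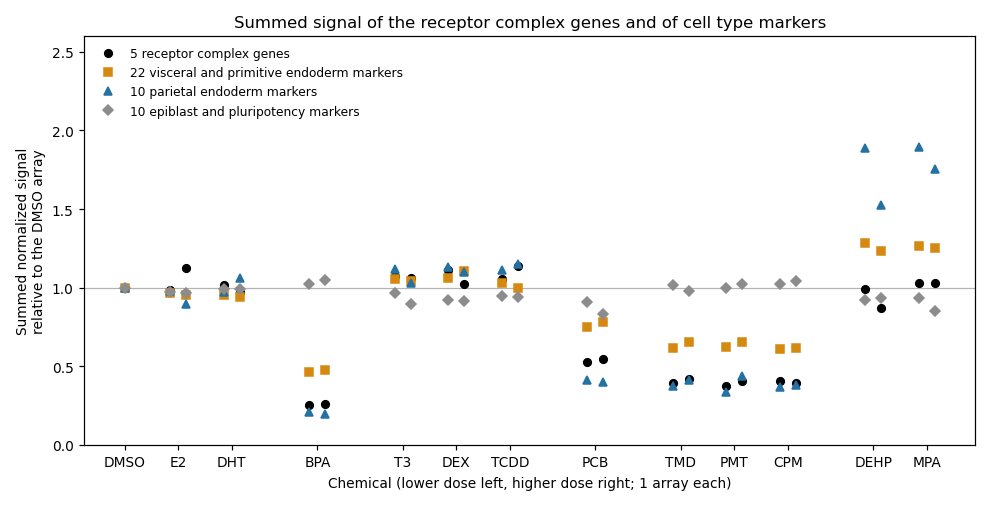
Summed normalized signal relative to the DMSO array (vertical axis) of the 5 receptor complex genes and of the detected visceral and primitive endoderm, parietal endoderm and epiblast markers, by chemical (horizontal axis, lower dose left). The complex was at 0.251 to 0.256 in BPA, and in DEHP and MPA its sum, carried mostly by Lrpap1, was at 0.869 to 1.03, that of the visceral and primitive endoderm markers at 1.23 to 1.29 and the parietal sum at 1.52 to 1.89.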

How the data were processed

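RNA from 25 samples of embryoid bodies was hybridised to 1-colour Illumina mouse arrays. The authors deposited a non-normalized table of background-subtracted intensity values with a detection p-value per probe and array, and a second table of intensity values normalized in GeneSpring, used here only as an alternative. The methods speak of triplicates and of the first version of the array, whereas the labels give 1 array per condition and the probes are those of the second version. Intensity was corrected with nec on the deposited p-values (offset 16), quantile normalized and taken to log2 with limma 3.58.1 in R 4.3.3. Probes with a detection p below 0.01 on at least 2 arrays were kept (19140 of 45281). A fit over 13 groups (DMSO and 12 chemicals, 12 residual degrees of freedom) was moderated with eBayes (trend) and p-values were adjusted over all kept probes. A gene with several kept probes is represented by that of highest mean log2 signal, and all members were named. Dose effects were fitted with the chemical as a block. Of all probes, 34885 had 1 gene symbol, 18 several and 10378 none. Promoters and gene names came from RefSeq (GRCm38.p6), which matched all 5 members. The number of arrays limits the precision. A few listed items are not reported here. The members and lists were chosen with earlier results of these data known.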

Additional observations from a re-analysis of the deposited data

How the results depend on the processing

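Over all alternatives and named values, 1944 values stayed on their side of the threshold in the same direction, 43 lost the call, 33 gained it and 8 changed direction. Of the 1944, 1271 came from leaving out 1 array at a time. These include arrays on neither side of a comparison, which alter a value only through the pooled spread, so that the tally does not measure robustness. Of the 43 lost calls, 24 came from the t-test named in the methods. The 24 pairs called against DMSO became 25 with scaling to the median, 23 with all probes or the mean of a gene's probes, 21 without the trend and 24 without background correction or with an offset of 50. With the mean of the other 11 chemicals as reference, which changes the question, 50 of 60 pairs were called (21 lower, 29 higher), and 11 of 15 for E2, DHT and BPA, against 5. The t-test named in the methods called 12 pairs at an unadjusted p below 0.05 and 1 of 60 after adjustment, and 2 and 0 of 15 for E2, DHT and BPA. Over all probes and the 12 chemicals it made 24066 and 289 calls. With DMSO, E2 and DHT together as reference, an alternative chosen after seeing the data like the comparisons of PCB and BPA with other chemicals and the single Dab2 probes, 31 of 50 pairs of the other 10 chemicals were called, against 24. Keeping only probes detected on all 25 arrays drops Cubn, and 19 of 48 pairs were called.

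Leaving out 1 array at a time gave 23 to 28 calls against DMSO (5 to 6 for E2, DHT and BPA), 5 to 5 among the 12 chemicals, 3 to 6 within groups of like doses, 7 to 8 between such groups, 0 to 1 for E2 against DHT (1 without the 1 nM E2 array), 3 to 5 for PCB (3 without its 10 nM array), 5 to 5 for BPA against E2 and DHT and 3 to 4 against TMD, PMT and CPM. Without DHT the dose comparison called 1 gene, against 0. Dab2 changed direction in MPA against DMSO with the mean of its probes (-0.10), ILMN_3091641 (-0.74) and ILMN_2543173 (-0.045). In DEHP minus MPA the same 2 probes gave 0.021 and 0.099, against -0.24. For DEHP and MPA against the nanomolar set ILMN_3091641 gave -0.11, where without PCB in the reference 9 of 10 values were called, against 7, the further ones being Amn and Lrpap1, lower in DEHP and MPA. For dose ILMN_2543173 gave 0.058. Lrpap1 in DEHP was 0.31 with the other chemicals as reference. The cause was not tested. No paired analysis was possible because the labels give no replicate numbers, but the dose comparison was itself fitted within chemicals, and with dose level as a term all 5 genes were still called among the 12 chemicals. Signal over background limits Cubn in BPA and ILMN_2543173.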
